A study of Mus musculus with 12 samples.

Results

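The microglia genes described here are 33 genes that mark microglia or are used by them, out of 52169 gene symbols in the transcript table of an RNA-seq experiment on mouse striatum. The members were chosen by gene symbol from a list of names, and each is represented by the one of its transcripts with the highest mean level over all libraries. The experiment covered female C57BL/6J mice that all received 6-OHDA, a toxin taken up by catecholamine neurons, in the right medial forebrain bundle after desipramine had been given to spare noradrenergic neurons, and that had 2 weeks to recover. All mice then received L-DOPA, the precursor of dopamine, at 10 mg/kg together with benserazide at 7.5 mg/kg, a blocker of the conversion of L-DOPA in the periphery. They were injected a single time (acute L-DOPA) or once a day for 9 days (chronic L-DOPA) and killed 1 h after the last dose. Chronic mice were thus killed later after 6-OHDA than acute mice. Between the treatments, repeated dosing and time since the lesion cannot be told apart. Punches of the injected side (lesioned) and of the other side (unlesioned) gave 4 groups of 3 libraries. There was no group without L-DOPA and none without 6-OHDA, so a difference between the sides was measured only in mice under L-DOPA, and the unlesioned side belongs to a treated mouse. The ages of the mice were not given in the sources used here. The labels count 12 mice for 12 libraries, with 3 mice in each group. The study names it as a strength of such one-sided lesions that a mouse serves as its own control, and whether both sides of a mouse were sequenced was not given in the sources used here.

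Microglia are the resident macrophages of the brain. They live on signals through the receptor CSF1R, keep a set of surface proteins such as P2RY12 and TMEM119 while they survey the tissue, and shift toward phagocytosis and lysosomal breakdown after injury, with the adaptor TYROBP passing on signals of receptors such as TREM2. They are also the main source of the complement protein C1q in the brain, and loss of dopamine axons and terminals is a setting in which striatal microglia are known to react.

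The transcription factor PU.1 directs the development of macrophages and binds purine-rich sites with the core GGAA, so the stretches before the start sites of the members were searched for 2 such words. RefSeq promoters (build GRCm38.p6), reaching from 250 bases before to 50 bases after a start site, were found for 25 members, and each was placed at a single site of mm9 by an exact match. The RefSeq start of *Aif1*, whose promoter held GAGGAA, lay at -2774 bases from the start of the measured transcript. Those of the other members lay at -154 to 211 bases from it. Searched on both strands, the word AGGAAGT was present in 8 of these 25 promoters and in 9.35% of all 32851 promoters of the same length. The word GAGGAA was present in 16 of the 25 and in 28.3% of all, and at least 1 of both words, which can overlap each other, in 17 of the 25 and in 32.7% of all. Such a match is a description of letters and not a measured binding site. Promoters of *C1qa*, *Csf1r*, *Tyrobp*, *Tmem119*, *Gpr34*, *Cd14*, *Selplg* and *Lyn* were not searched here. To show what the words look like, the 250 bases before the start are printed for 3 members that differed between the sides after acute L-DOPA and for *Inpp5d*, which passed no test. Capitals mark the words or their reverse complements, and the mm9 positions are chr4:136442116-136442365 on the minus strand for *C1qb*, chr1:172989535-172989784 on the minus strand for *Fcgr3*, chr17:48485476-48485725 on the plus strand for *Trem2* and chr1:89516637-89516886 on the plus strand for *Inpp5d*.
C1qb: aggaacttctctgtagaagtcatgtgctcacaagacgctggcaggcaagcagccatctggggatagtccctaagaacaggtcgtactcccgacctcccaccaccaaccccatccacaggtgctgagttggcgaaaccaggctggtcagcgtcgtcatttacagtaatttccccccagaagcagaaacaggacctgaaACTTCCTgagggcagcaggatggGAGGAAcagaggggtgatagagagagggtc
Fcgr3: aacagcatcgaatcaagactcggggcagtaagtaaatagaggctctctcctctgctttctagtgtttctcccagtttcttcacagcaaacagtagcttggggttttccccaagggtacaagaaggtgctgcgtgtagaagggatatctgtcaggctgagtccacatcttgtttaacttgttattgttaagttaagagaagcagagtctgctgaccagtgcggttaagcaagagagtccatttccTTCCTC
Trem2: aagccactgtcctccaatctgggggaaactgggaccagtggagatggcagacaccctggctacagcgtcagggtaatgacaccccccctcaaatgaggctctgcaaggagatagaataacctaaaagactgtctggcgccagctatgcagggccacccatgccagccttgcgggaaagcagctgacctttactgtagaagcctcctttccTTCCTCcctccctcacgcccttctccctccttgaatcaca
Inpp5d: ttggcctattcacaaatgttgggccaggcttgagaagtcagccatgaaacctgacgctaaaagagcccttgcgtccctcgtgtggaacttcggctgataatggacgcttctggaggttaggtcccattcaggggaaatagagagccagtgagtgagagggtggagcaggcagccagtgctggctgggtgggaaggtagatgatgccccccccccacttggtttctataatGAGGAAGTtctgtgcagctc

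The authors deposited the number of reads per transcript, and the totals were 87695043 to 173116525 counts per library. Levels are given as CPM, the counts per 1000000 of the normalised library total, and libraries of a group are named by the numbers 1, 2 and 3 of their labels and listed in that order. Where no read was counted, up to 3 reads remain possible by counting error alone, a limit of 0.0171 to 0.0347 CPM. Groups were compared with edgeR's quasi-likelihood test over all transcripts, and a member was called higher or lower at a Benjamini-Hochberg adjusted p under 0.05. Fold changes are on the log2 scale, given with their standard error. In whole tissue, fewer microglia and less RNA per cell cannot be told apart. Markers of striatal projection neurons, such as *Ppp1r1b* and *Penk*, summed to 1797 to 2421 CPM in the 12 libraries, while single ones moved with the lesion: after acute L-DOPA, 4 of 9 were higher on the lesioned side, such as *Penk* (0.94 ± 0.07, adjusted p = 5.81e-06), and 4 lower, such as the dopamine receptor *Drd1a* (-2.30 ± 0.10, adjusted p = 1.36e-08), and after chronic L-DOPA 2 were higher and 1 lower. Of 9 markers of blood monocytes and neutrophils, none was tested, because none passed the filter on low counts, 4 of them were under 0.1 CPM in every library, and their sum was at most 1.25 CPM. That highest sum was in lesioned acute library 2, with 0.864 CPM in unlesioned acute library 2 and at most 0.242 CPM in each of the other 10. Of 9 markers of lymphocytes only *Cd4* passed the filter and the other 8 were under 0.1 CPM in every library. *Cd4* was lower on the lesioned side after acute (-0.41 ± 0.07, adjusted p = 0.00278) and chronic L-DOPA (-0.88 ± 0.12, adjusted p = 0.000849), and in the lesioned striatum lower after chronic than acute L-DOPA (-0.54 ± 0.10, adjusted p = 0.00452). Some libraries stood apart in tissue that borders the striatum: choroid plexus markers summed to 470 CPM in unlesioned chronic library 2 and to at most 3.20 CPM in every other library, and cortical neuron markers ran from 2.08 to 42.2 CPM over the 12 libraries, lower on the lesioned side in all 6 same-numbered pairs.

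The level of the members per kilobase of transcript spanned a wide range in unlesioned striatum given acute L-DOPA. The highest was the lysosomal protease *Ctsd* at 30.1 ± 0.542 CPM per kb (SD, n = 3), which other brain cells make as well, followed by the protease *Ctss* at 13.2 ± 0.451, *C1qb* at 12.99 ± 0.398 and *C1qa* at 10.5 ± 0.259. *Ctss* and *C1qb* did not differ beyond their SDs. Of the receptors, *Csf1r* was at 4.61 ± 0.102, *P2ry12* at 3.09 ± 0.288 and *Cx3cr1* at 2.98 ± 0.261 CPM per kb, the latter pair within its SDs. The lowest were the leukocyte phosphatase *Ptprc* at 0.0923 ± 0.0216, *Tlr2* at 0.0745 ± 0.0169 and the integrin *Itgax* at 0.0125 ± 0.00781 CPM per kb. *Itgax* had 0 to 19 counts per library.

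Taken as a set, the members were highest on the lesioned side after acute L-DOPA and lowest after chronic L-DOPA. In each library, the median member lay above its own mean over the 12 libraries by 0.32 to 0.47 on the log2 scale in the lesioned acute group and by 0.07 to 0.11 in the unlesioned acute group. It lay between -0.41 and -0.21 in the unlesioned chronic group and between -0.43 and -0.05 in the lesioned chronic group. Within groups, the libraries were not alike: 25 of the 33 members had their lowest lesioned acute level in library 2, and library 1 held the lowest level of 24 members in the unlesioned chronic and of 25 members in the lesioned chronic group.

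**Figure D1:**
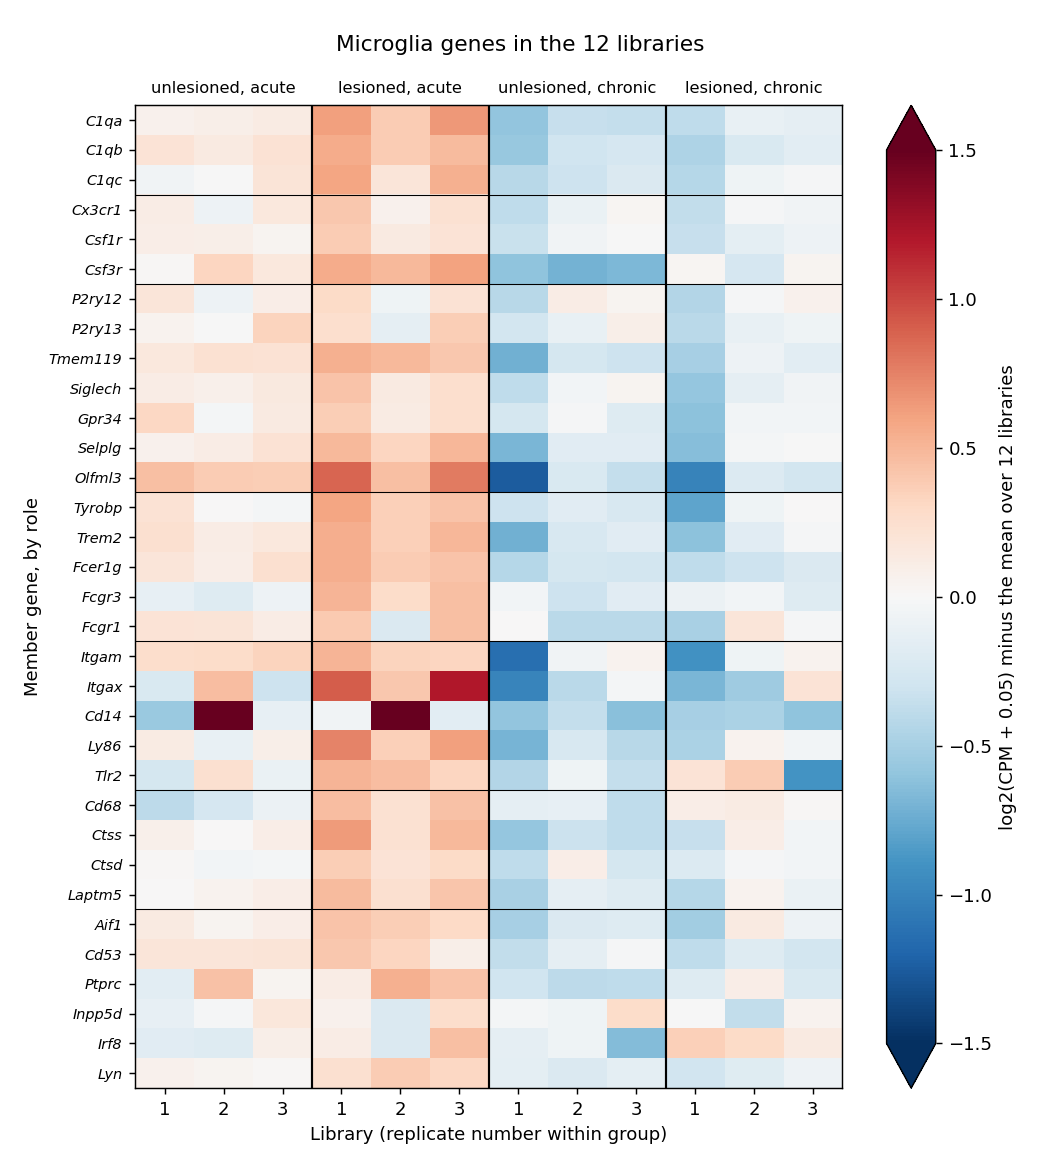
Each row is a member, ordered by role, and each column a library. Colours give log2(CPM + 0.05) minus the member's mean over the 12 libraries, from blue (lower) to red (higher), with values beyond ±1.5 shown in the end colours. The median member lay at 0.32 to 0.47 in the 3 lesioned acute libraries, and *Cd14* stands out in both acute libraries numbered 2.

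After acute L-DOPA, lesioned and unlesioned striata were compared to see which microglia genes differ with the loss of dopamine innervation. Of the 33 members, 14 were higher in the lesioned striatum, none was lower (edgeR; none at an unadjusted p under 0.05 or by DESeq2 either), and all 33 had a fold change above 0, with a median of 0.29. Over 20402 genes tested on one transcript each, 8.16% were called higher and 7.16% lower, the median was 0.02 and 52.5% had a fold change above 0. The members that rose were the 3 C1q chains, all 4 lysosomal members, 3 of 5 genes of ITAM signalling, which acts through tyrosine motifs of adaptor proteins, and *Tmem119*, *Selplg*, *Ly86* and *Csf3r*. The 6 members of leukocyte signalling and transcription were not called.

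The C1q chains start the classical complement pathway and lie next to each other on chromosome 4 (mm9; *C1qa* at chr4:136451831-136454759, minus strand, *C1qb* at chr4:136436048-136442110, minus strand, *C1qc* at chr4:136445719-136448980, minus strand). *C1qa* was at 11.1, 11.4 and 11.7 CPM in the unlesioned and at 16.4, 13.9 and 16.9 CPM in the lesioned striatum, *C1qb* at 14.3, 13.7 and 14.5 against 18.3, 16.2 and 17.3 CPM. *C1qc* was at 8.91, 9.18 and 10.6 against 14.0, 10.5 and 13.4 CPM. The groups did not overlap for *C1qa* and *C1qb*, whereas lesioned library 2 of *C1qc* lay just under unlesioned library 3. The fold changes were 0.47 ± 0.08, adjusted p = 0.00188 for *C1qa*, 0.29 ± 0.06, adjusted p = 0.0121 for *C1qb* and 0.41 ± 0.10, adjusted p = 0.0208 for *C1qc* (edgeR, Benjamini-Hochberg).

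The lysosomal members rose together. *Cd68*, a glycoprotein of the late endosome that is widely used to show phagocytic microglia (mm9 chr11:69477716-69479629, minus strand), was at 2.501, 2.77 and 3.10 CPM in the unlesioned and at 4.59, 3.90 and 4.50 CPM in the lesioned striatum. *Ctss*, a cathepsin that also cuts extracellular matrix (chr3:95330708-95360322, plus strand), was at 18.1, 17.2 and 18.4 against 26.7, 20.1 and 23.9 CPM. Neither pair of groups overlapped, and *Cd68* changed by 0.65 ± 0.10, adjusted p = 0.00131, the largest rise among the 14 called members, and *Ctss* by 0.41 ± 0.09, adjusted p = 0.0118. *Ctsd* (chr7:149561815-149573943, minus strand) was at 65.5, 63.3 and 63.7 against 83.7, 74.9 and 79.4 CPM. *Laptm5*, a lysosomal membrane protein of blood cells (chr4:130469040-130492056, plus strand), was at 8.14, 8.42 and 8.69 against 11.3, 9.66 and 10.9 CPM. All 3 lesioned libraries lay above all 3 unlesioned ones for both, with changes of 0.31 ± 0.06, adjusted p = 0.00636 and 0.34 ± 0.07, adjusted p = 0.00872 by edgeR.

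Among the adaptors and activating receptors, *Fcgr3*, a low-affinity receptor for IgG (mm9 chr1:172981300-172989534, minus strand), was at 2.46, 2.35 and 2.56 CPM in the unlesioned and at 3.87, 3.28 and 3.71 CPM in the lesioned striatum. *Tyrobp* (chr7:31198807-31202601, plus strand) was at 3.10, 2.67 and 2.61 against 4.03, 3.42 and 3.62 CPM, and its partner *Trem2*, a receptor for lipids (chr17:48485765-48493472, plus strand), at 3.77, 3.46 and 3.58 against 4.68, 4.12 and 4.55 CPM. The groups of all 3 were apart, and edgeR gave 0.57 ± 0.09, adjusted p = 0.00160 for *Fcgr3*, 0.41 ± 0.10, adjusted p = 0.0190 for *Tyrobp* and 0.31 ± 0.08, adjusted p = 0.0244 for *Trem2*. The shared Fc receptor chain *Fcer1g* (chr1:173159703-173164480, minus strand) was at 1.92, 1.81 and 2.01 against 2.49, 2.22 and 2.28 CPM. These groups did not overlap, and the change of 0.29 ± 0.09 missed the threshold (edgeR, adjusted p = 0.0625). The high-affinity IgG receptor *Fcgr1* had a difference of 0.10 ± 0.17, adjusted p = 0.754, with lesioned library 2 under all unlesioned libraries.

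*Ly86*, which partners a Toll-like receptor homologue (mm9 chr13:37437214-37510905, plus strand), was at 2.79, 2.37 and 2.73 CPM in the unlesioned and at 4.32, 3.30 and 3.95 CPM in the lesioned striatum, a change of 0.56 ± 0.11, adjusted p = 0.00575 (edgeR). The other pattern recognition genes and integrins did not pass. *Itgax*, known from dendritic cells and reactive microglia, had the highest fold change of any member, 1.43 ± 0.45, adjusted p = 0.0595, at 0.0342, 0.0864 and 0.0300 against 0.136, 0.0809 and 0.177 CPM on at most 19 reads per library. It passed the filter on low counts only through the lesioned libraries, where it was high, so this value is not read as a rise. *Tlr2* had groups that did not overlap and a difference of 0.56 ± 0.23, adjusted p = 0.133, and *Itgam*, the integrin chain of the complement receptor CR3, one of 0.11 ± 0.07, adjusted p = 0.3598. The difference of *Cd14* was 0.24 ± 0.67, adjusted p = 0.854, its levels being high in library 2 of both groups.

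Of the 7 surface genes of the resting state, *Tmem119* and *Selplg* rose. *Tmem119* (chr5:114243738-114250525, minus strand) was at 6.15, 6.47 and 6.39 CPM in the unlesioned and at 7.96, 7.74 and 7.31 CPM in the lesioned striatum, and *Selplg*, a ligand of selectins (chr5:114267807-114280510, minus strand), at 8.03, 8.36 and 8.99 against 10.8, 9.64 and 10.9 CPM. Neither overlapped, and the changes were 0.28 ± 0.06, adjusted p = 0.0146 and 0.31 ± 0.07, adjusted p = 0.0142. The secreted protein gene *Olfml3* differed by 0.32 ± 0.10, adjusted p = 0.0538. The purinergic receptors had small differences, 0.09 ± 0.10, adjusted p = 0.584 for *P2ry12*, which senses ADP, and 0.05 ± 0.14, adjusted p = 0.834 for *P2ry13*, the second lowest of the 33. *P2ry13* was at 2.15, 2.07 and 2.63 against 2.47, 1.87 and 2.69 CPM, with overlapping groups. *Siglech* and *Gpr34* differed by 0.18 ± 0.08 and 0.12 ± 0.11 and were not called (adjusted p = 0.187 and 0.513).

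Of the receptors for survival and chemokines, *Csf3r*, the receptor of the granulocyte growth factor (mm9 chr4:125701794-125721684, plus strand), was at 0.832, 1.04 and 0.922 CPM in the unlesioned and at 1.24, 1.17 and 1.28 CPM in the lesioned striatum, a change of 0.41 ± 0.12, adjusted p = 0.0479. The groups were apart. *Csf1r* and the fractalkine receptor *Cx3cr1* had differences of 0.17 ± 0.07, adjusted p = 0.134 and 0.18 ± 0.09, adjusted p = 0.217. In the last role, *Inpp5d*, a lipid phosphatase that dampens such receptors, had the lowest fold change of all members, 0.05 ± 0.12, adjusted p = 0.826, at 2.54, 2.74 and 3.14 against 2.91, 2.38 and 3.35 CPM with overlapping groups. *Aif1*, whose product IBA1 is the common stain for microglia, was at 0.928, 0.864 and 0.907 against 1.15, 1.10 and 1.04 CPM, without overlap, and its difference of 0.29 ± 0.11 was not called (edgeR, adjusted p = 0.117). The other 4 of this role had differences of 0.28 ± 0.10 (*Lyn*), 0.26 ± 0.20 (*Ptprc*), 0.25 ± 0.16 (*Irf8*) and 0.10 ± 0.10 (*Cd53*), and only those of *Lyn* came from groups that did not overlap.

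Groups did not overlap, with the lesioned one higher, for 18 of the 33 members and for 17.1% of all genes tested. Set against the library of the same number, 25 members were higher on the lesioned side in 3 of 3 pairs, compared with 28.3% of all genes, and none was lower in 3 of 3, compared with 27.6% of all genes. Libraries of the same number deviated together, though the labels do not name them as pairs. With the number as a block, 19 members were called higher, while the share of all genes called higher went from 8.16% to 13.2%. Beside the 14, these were *Fcer1g*, *Olfml3*, *Csf1r*, *Cx3cr1* and *Itgax* (edgeR, adjusted p from 0.0112 for *Olfml3* to 0.0498 for *Csf1r*). *Itgax* had few reads and passed the filter on low counts only through the lesioned libraries, so its call is no separate support. In the fits that left out one library, 9 to 13 members rose, the 9 without unlesioned acute library 2, with 5.11% to 7.57% of all genes called higher, and 7 were called in all 6 such fits: *C1qa*, *Cd68*, *Ctss*, *Ctsd*, *Laptm5*, *Ly86* and *Fcgr3*. The call of *C1qb* was lost without unlesioned library 2, that of *Tmem119* without unlesioned library 1 or lesioned library 2 and that of *Selplg* without unlesioned library 1 or 2. *C1qc* was lost without unlesioned library 1 or 2 or lesioned library 1, *Tyrobp* and *Trem2* without unlesioned library 2 or 3 or lesioned library 1, and *Csf3r* without any one library. The highest adjusted p in these fits was 0.0982 for *Trem2* among the first 6 and 0.167 for *Csf3r*. Without both acute libraries numbered 2, 8 members rose and the median was 0.34, with 3.67% of all genes called higher. In one fit over all 12 libraries, which takes its estimate of the spread from all groups, 6 members and 5.43% of all genes were called higher, the members being *C1qa*, *C1qc*, *Cd68*, *Ctss*, *Ly86* and *Fcgr3*, and the other 8 lost their call (adjusted p from 0.0605 for *Csf3r* to 0.227 for *Selplg*). Of the markers of other cells, 4 of 9 astrocyte genes and 2 of 8 oligodendrocyte genes were also higher. The astrocyte markers summed to 544 to 603 CPM in the unlesioned and 612 to 783 CPM in the lesioned libraries, without overlap, and the oligodendrocyte markers to 2118 to 2363 CPM and 2142 to 3547 CPM, with overlap and higher in 3 of 3 pairs. The 8 oligodendrocyte fold changes lay between 0.24 and 0.42, with a median of 0.31, and those of 4 red blood cell genes, not called, between 0.19 and 0.62, with a median of 0.30 and sums of 4.00 to 7.92 CPM in the unlesioned and 4.99 to 9.77 CPM in the lesioned libraries, higher in 3 of 3 pairs. Perivascular macrophage markers summed to 4.57 to 4.88 against 4.14 to 4.58 CPM, with *Cd163* lower (-1.13 ± 0.13, adjusted p = 0.000198) and the other 4 tested not called. Cortical neuron markers summed to 31.2, 14.3 and 13.6 CPM in the unlesioned and to 16.8, 2.87 and 2.63 CPM in the lesioned libraries, lower in 3 of 3 pairs with overlapping groups, and had a median log2 fold change of -1.35, with 1 of 7 called lower. The part of these cells in the members' rise was not tested.

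Genes of the same pathways outside the members moved in the same comparison. Of 12 complement genes beyond C1q, 11 were tested and 5 were higher: *C2*, a protease of the classical pathway (2.01 ± 0.19, adjusted p = 3.17e-05), *Cfb*, its counterpart in the alternative pathway (1.84 ± 0.22, adjusted p = 0.000207), *C4b* (1.29 ± 0.14, adjusted p = 0.000103) and *Serping1*, the inhibitor of the C1 proteases (0.83 ± 0.16, adjusted p = 0.00604) and *Clu*, an extracellular chaperone (0.56 ± 0.08, adjusted p = 0.000590). Of 33 further microglial and macrophage genes tested, 9 were higher, with a median of 0.28 over the list, led by the glucan receptor *Clec7a* (1.47 ± 0.41, adjusted p = 0.0358) and *Cd52* (0.85 ± 0.24, adjusted p = 0.0367), then *P2ry6*, which senses UDP, and *Unc93b1*. Of 17 genes of activated microglia tested, 9 were higher, with *Gpnmb* (1.11 ± 0.25, adjusted p = 0.0150), the protease *Ctsl* (0.56 ± 0.06, adjusted p = 4.60e-05) and *B2m* (0.54 ± 0.10, adjusted p = 0.00571) next to *Clec7a*. Of 12 genes that act below the ITAM adaptors, 3 were higher, *Was* (0.87 ± 0.22, adjusted p = 0.0254), *Ptpn6* (0.60 ± 0.16, adjusted p = 0.0288) and *Plcg2* (0.47 ± 0.14, adjusted p = 0.0428). Among the ligands of microglial receptors, *Csf1* was higher (0.48 ± 0.10, adjusted p = 0.00907) and *Il34*, the other ligand of CSF1R, lower (-0.35 ± 0.07, adjusted p = 0.00529), with *Apoe*, *Tgfb1* and *Tgfb2* higher and *Cd47* lower. Of 8 inflammatory genes tested, only *Ptgs2*, which neurons make as well, was called (2.32 ± 0.45, adjusted p = 0.00580).

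After chronic L-DOPA, the same sides were compared. Of 32 members tested, 1 was higher in the lesioned striatum, and 23 had a fold change above 0, with a median of 0.09. Over 19742 genes, 8.46% were called higher and 5.20% lower, and the median was -0.01. *Itgax* was not tested, since it did not pass the filter on low counts, at 0, 0.0250 and 0.0470 CPM in the unlesioned and 0.0114, 0.0185 and 0.0638 CPM in the lesioned striatum.

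The called member was *Csf3r*, at 0.525, 0.484 and 0.497 CPM in the unlesioned and at 0.843, 0.684 and 0.848 CPM in the lesioned striatum. The groups did not overlap and the change was 0.66 ± 0.17, adjusted p = 0.0282 (edgeR). Of the 6 fits that left out one library, only that without lesioned chronic library 2 kept the call, with fold changes between 0.61 and 0.76 and adjusted p up to 0.104 in the 6, and DESeq2 did not call it. Other members were called in its place in some fits: *Irf8* without unlesioned chronic library 2, *Ctss* without lesioned chronic library 1, and *Irf8* and *Ctss* by DESeq2 (adjusted p = 0.0365, 0.0309, 0.0482 and 0.0496). *Irf8*, a transcription factor of microglia and macrophages, had the next highest fold change, at 1.24, 1.31 and 0.853 against 1.76, 1.68 and 1.504 CPM without overlap (0.55 ± 0.17, adjusted p = 0.0624). The complement, lysosomal and ITAM members had fold changes above 0 throughout, from 0.00 (*Tyrobp*) to 0.34 (*Ctss*), whereas 4 of the 7 resting-state genes lay below 0, *Siglech* lowest at -0.13 ± 0.15. The lowest of all members was *Inpp5d*, at 2.73, 2.65 and 3.36 against 2.77, 2.14 and 2.88 CPM (-0.17 ± 0.14, adjusted p = 0.503).

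With the replicate number as a block, 6 members rose: *Csf3r*, *Ctss*, *Irf8*, *Cd68*, *C1qa* and *Ly86* (adjusted p = 0.0128, 0.00393, 0.00833, 0.0328, 0.0364 and 0.0467), and the share of all genes called higher went from 8.46% to 12.8%. The third pair of chronic libraries was the weakest, with a correlation of 0.160 beside 0.153 for lesioned library 1 with unlesioned library 3, whose numbers differ. *Ctss* was at 11.4, 13.7 and 13.2 against 13.5, 18.4 and 16.7 CPM, *Cd68* at 3.02, 3.04 and 2.53 against 3.54, 3.61 and 3.36 CPM. *C1qa* was at 7.07, 8.39 and 8.36 against 8.18, 9.92 and 9.70 CPM and *Ly86* at 1.57, 2.17 and 1.90 against 1.82, 2.65 and 2.497 CPM. The groups of *Ctss*, *C1qa* and *Ly86* overlapped, and those of *Cd68* did not, while the lesioned library was the higher one in 3 of 3 pairs for all 4. Over all members, 13 were higher in 3 of 3 pairs and 4 were lower, compared with 26.3% and 28.9% of all genes tested. Groups were apart, with the lesioned one higher, for 4 of 32 members and for 16.5% of genes. The median over the members was -0.01 without unlesioned chronic library 1 and 0.23 without lesioned chronic library 1.

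Outside the members, *C4b* was again higher (1.44 ± 0.12, adjusted p = 3.67e-05), the only one of 10 complement genes tested, while *C2* (-0.28 ± 0.28, adjusted p = 0.585) and *Cfb* (0.41 ± 0.17, adjusted p = 0.166) were not called. Of 32 further microglial genes tested, *Tgfbr1* was higher (0.83 ± 0.11, adjusted p = 0.000841), and of 15 genes of activated microglia *Gpnmb* (1.03 ± 0.25, adjusted p = 0.0232) and *Ctsl* (0.44 ± 0.07, adjusted p = 0.00288). The 12 genes below the ITAM adaptors lay between -0.29 and 0.36 and were not called. Of 5 inflammatory genes tested, *Ptgs2* was higher (4.79 ± 0.24, adjusted p = 5.04e-07) and *Tnfaip3*, a brake on NF-kB, lower (-1.02 ± 0.17, adjusted p = 0.00313). Of the ligands, *Tgfb1* was higher (2.95 ± 0.12, adjusted p = 1.40e-07), as was *Cx3cl1*, the neuronal ligand of CX3CR1 (0.55 ± 0.08, adjusted p = 0.00163), and *Il34* lower (-0.47 ± 0.11, adjusted p = 0.0228). The astrocyte markers *Gfap*, *Vim* and *Serpina3n* were higher, 3 of 9, with sums of 532 to 623 CPM in the unlesioned and 636 to 669 CPM in the lesioned striatum, and *Cd163* was lower (-1.003 ± 0.16, adjusted p = 0.00231), 1 of 4 perivascular macrophage markers tested. Cortical neuron markers summed to 25.2, 5.53 and 42.2 against 23.2, 2.16 and 2.08 CPM, lower in 3 of 3 pairs, with a median log2 fold change of -1.58 and none of 6 called. The 8 oligodendrocyte markers had a median of -0.21 and the 4 red blood cell genes one of -0.06, none called, and the part of these cells in the values of the members was not tested.

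**Figure D2:**
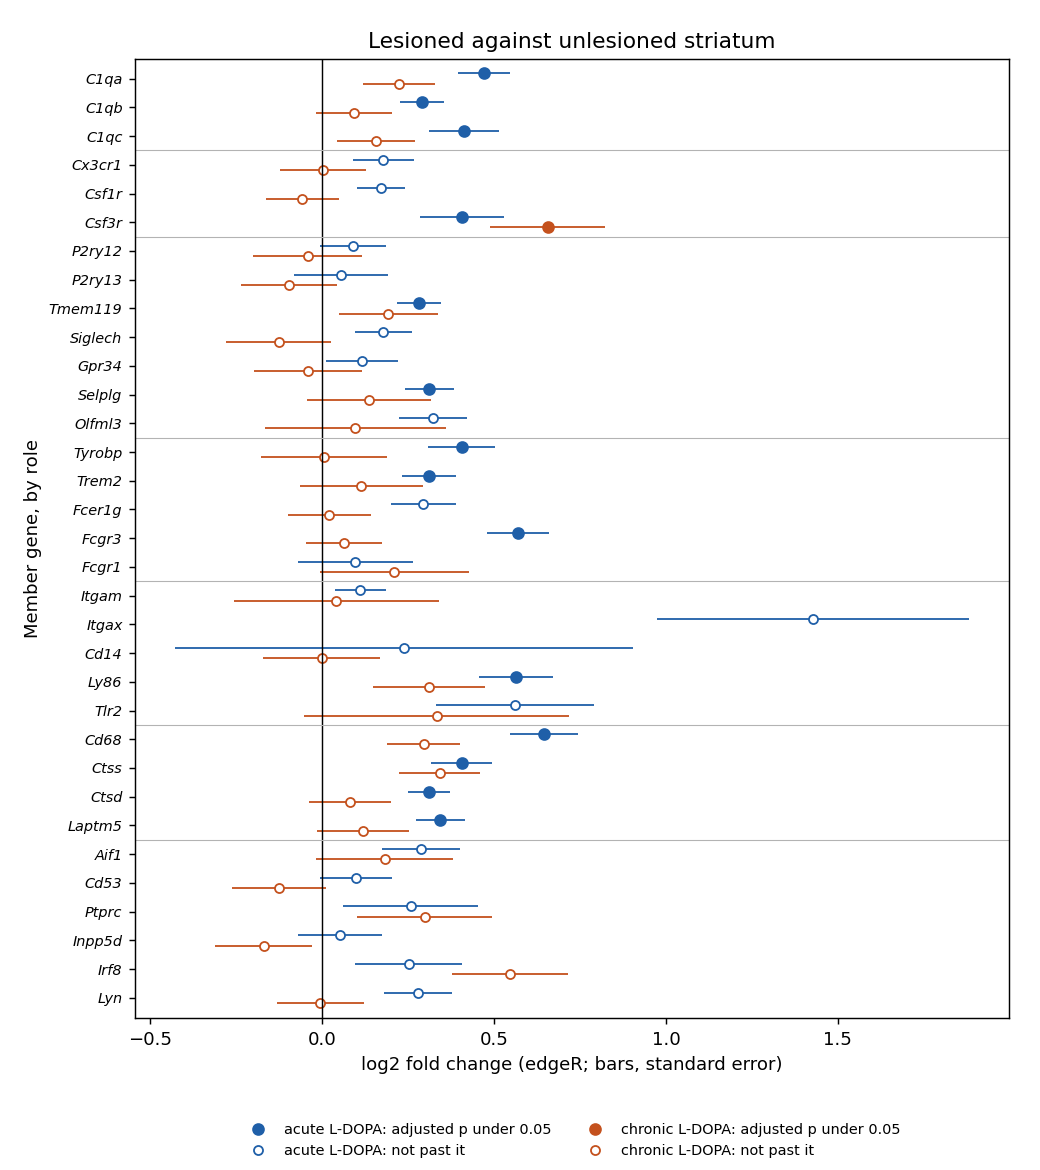
Points give the log2 fold change of the lesioned against the unlesioned striatum for each member (rows, by role) with its standard error as a bar, in blue after acute and in orange after chronic L-DOPA. Filled points passed an adjusted p of 0.05. All 33 blue points lie above 0, and 14 are filled, against 1 filled orange point, *Csf3r*.

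Whether the lesion effect itself differed between the treatments was tested as an interaction over all 12 libraries. The treatments differ in dosing and in time since the lesion together. Of 33 members, 1 changed: *Fcgr3*, whose lesion effect was smaller by 0.50 after chronic than after acute L-DOPA (log2 difference -0.50 ± 0.13, adjusted p = 0.0469, edgeR). Its chronic levels were 2.61, 2.16 and 2.40 CPM in the unlesioned and 2.53, 2.61 and 2.35 CPM in the lesioned striatum, overlapping, beside the acute levels given above. Over 20682 genes, 3.53% changed upward and 1.56% downward. The difference was below 0 for 29 members and above 0 for 4, with a median of -0.22 and of -0.03 over all genes. The 8 oligodendrocyte markers lay between -0.68 and -0.32, with a median of -0.52, and the 4 red blood cell genes between -0.59 and -0.22, with a median of -0.41, none of them called, and their part in the values of the members was not tested. The highest was that of *Irf8* (0.30 ± 0.25, adjusted p = 0.554) and the lowest that of *Itgax* (-1.12 ± 1.04, adjusted p = 0.610), on few reads. The call of *Fcgr3* was lost in 9 of the 12 fits that left out one library, with adjusted p up to 0.122, and without both acute libraries numbered 2, with a difference of -0.53. It was kept without lesioned acute library 2, unlesioned chronic library 2 or lesioned chronic library 2. Of the complement genes outside the members, the lesion effects of *C2* (-2.28 ± 0.33, adjusted p = 0.000758) and *Cfb* (-1.43 ± 0.30, adjusted p = 0.0123) were also smaller, and of the activated microglia list that of *Apoe* (-0.56 ± 0.10, adjusted p = 0.00283), whereas those of *Tgfb1* (2.47 ± 0.16, adjusted p = 4.19e-07), *Cx3cl1* (0.37 ± 0.10, adjusted p = 0.0399) and *Ptgs2* (2.47 ± 0.64, adjusted p = 0.0418) were larger. For the other 32 members a change of the lesion effect was not detectable with these libraries.

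In the lesioned striatum, chronic and acute L-DOPA were compared to see which members differed after repeated dosing and the longer time since the lesion, which cannot be told apart. Of 32 members tested, 23 were lower after chronic L-DOPA and none was higher (edgeR; none was higher at an unadjusted p under 0.05 or by DESeq2 either), and 31 of 32 fold changes were below 0, with a median of -0.53. Over 19790 genes, 13.1% were lower, 12.5% higher and the median was -0.02. The members that fell covered all 3 C1q chains, all 3 survival and chemokine receptors, all 4 lysosomal genes, 4 of 5 ITAM genes and 5 of 7 resting-state genes, with *Itgam*, *Ly86*, *Cd53* and *Lyn*. This comparison shares the lesioned acute libraries with the acute lesion effect and the lesioned chronic libraries with the chronic one, so the same values enter both.

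*Olfml3* (mm9 chr3:103537623-103541891, minus strand) fell most among the called members. It was at 5.71, 4.24 and 5.36 CPM after acute and at 1.53, 2.69 and 2.55 CPM after chronic L-DOPA in the lesioned striatum, a change of -1.17 ± 0.18, adjusted p = 0.00151. In the vM1 annotation 110 of its exonic bases lie in *Gm16520* on the same strand, whose reads cannot be told apart there. *Tmem119* was at 3.88, 5.23 and 4.90 CPM after chronic L-DOPA (-0.71 ± 0.11, adjusted p = 0.00126) and *Selplg* at 4.93, 7.57 and 7.69 CPM (-0.63 ± 0.14, adjusted p = 0.0103), against the acute levels above. All chronic libraries of these 3 lay under all acute ones. *Siglech*, a sialic acid receptor (chr7:63023596-63034818, plus strand), went from 5.46, 4.44 and 4.81 to 2.70, 3.67 and 3.89 CPM (-0.52 ± 0.14, adjusted p = 0.0197), and *Gpr34*, a receptor for lysophospholipid (chrX:13209215-13217982, plus strand), from 3.37, 2.85 and 3.10 to 1.69, 2.53 and 2.53 CPM (-0.46 ± 0.15, adjusted p = 0.0461). *P2ry12* and *P2ry13* were not called, with -0.27 ± 0.13, adjusted p = 0.166 and -0.37 ± 0.15, adjusted p = 0.0962.

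All 3 C1q chains fell. *C1qa* was at 8.18, 9.92 and 9.70 CPM after chronic L-DOPA, *C1qb* at 9.01, 10.6 and 11.2 CPM and *C1qc* at 6.84, 8.84 and 9.11 CPM, all below every lesioned acute library. The changes were -0.76 ± 0.10, adjusted p = 0.000528, -0.75 ± 0.09, adjusted p = 0.000364 and -0.61 ± 0.13, adjusted p = 0.00710 (edgeR), and all 3 were called whichever library was left out.

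Of the ITAM genes, *Fcer1g* went from 2.49, 2.22 and 2.28 to 1.29, 1.35 and 1.45 CPM (-0.77 ± 0.11, adjusted p = 0.000920). *Trem2* was at 2.06, 2.84 and 3.16 CPM after chronic L-DOPA (-0.72 ± 0.14, adjusted p = 0.00483), *Tyrobp* at 1.51, 2.55 and 2.69 CPM (-0.70 ± 0.18, adjusted p = 0.0154) and *Fcgr3* at the levels given above (-0.54 ± 0.10, adjusted p = 0.00437). *Tyrobp* was lowest in chronic library 1, without which its change was -0.50 and still called. *Fcgr1* had -0.34 ± 0.22, adjusted p = 0.298, with overlapping groups.

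The receptor *Csf1r* (chr18:61265506-61291803, plus strand) was at 26.8, 22.5 and 23.7 CPM after acute and at 16.2, 18.5 and 19.5 CPM after chronic L-DOPA in the lesioned striatum (-0.43 ± 0.09, adjusted p = 0.00894). *Csf1r* shares 871 exonic bases with *Hmgxb3* on the opposite strand. The handling of strand was not given, so reads of both genes may be mixed there. *Cx3cr1* (chr9:119957811-119977400, minus strand) was at 14.0, 11.1 and 12.4 against 8.19, 10.4 and 10.2 CPM (-0.38 ± 0.11, adjusted p = 0.0309), and *Csf3r* fell by 0.64 ± 0.14 (adjusted p = 0.00936). Acute and chronic libraries were apart for all 3.

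All 4 lysosomal members fell. *Ctss* changed by -0.55 ± 0.13, adjusted p = 0.0108, *Laptm5*, at 6.04, 8.46 and 7.57 CPM after chronic L-DOPA, by -0.53 ± 0.12, adjusted p = 0.00907, and *Ctsd*, at 56.2, 64.0 and 63.0 CPM, by -0.38 ± 0.08, adjusted p = 0.00785. *Cd68* changed by -0.31 ± 0.10, adjusted p = 0.0415. Of the integrins and pattern recognition genes, *Ly86* was at 1.82, 2.65 and 2.497 CPM (-0.73 ± 0.15, adjusted p = 0.00597), and *Itgam* (chr7:135206154-135262005, plus strand) went from 5.70, 5.04 and 4.99 to 2.11, 3.82 and 4.13 CPM (-0.64 ± 0.19, adjusted p = 0.0339), lowest in chronic library 1. *Cd14* had the lowest fold change of all members, -1.64 ± 0.56, adjusted p = 0.0554, which rests on lesioned acute library 2: its levels were 0.841, 4.12 and 0.773 CPM after acute and 0.604, 0.610 and 0.556 CPM after chronic L-DOPA, and without that library the change was -0.45. *Tlr2* was not called (-0.53 ± 0.35, adjusted p = 0.298).

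In the last role, the tetraspanin *Cd53* (chr3:106561779-106593067, minus strand) went from 2.01, 1.90 and 1.61 to 1.15, 1.31 and 1.24 CPM (-0.57 ± 0.13, adjusted p = 0.00921) and the Src family kinase *Lyn* (chr4:3605268-3718759, plus strand) from 1.52, 1.68 and 1.59 to 1.04, 1.12 and 1.20 CPM (-0.50 ± 0.12, adjusted p = 0.0134), both without overlap. *Lyn* shares 244 exonic bases with *Gm17726* on the opposite strand. *Aif1*, at 0.569, 0.925 and 0.793 CPM after chronic L-DOPA, just missed the threshold (-0.51 ± 0.17, adjusted p = 0.0542), and *Ptprc* was not called (-0.49 ± 0.20, adjusted p = 0.0956). *Irf8* was the one member with a fold change above 0 (0.12 ± 0.16, adjusted p = 0.645), at 1.49, 1.17 and 1.88 against 1.76, 1.68 and 1.504 CPM, and its value was -0.02 without lesioned acute library 2. *Inpp5d* had -0.16 ± 0.15, adjusted p = 0.479.

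Chronic and acute lesioned libraries were apart, with chronic lower, for 26 of 32 members and for 21.7% of all genes. Leaving out one library gave 18 to 25 members that fell and 6.45% to 16.5% of all genes, and 16 of the 23 were called in all 6 such fits. *Tyrobp* was lost without lesioned acute library 1, *Siglech* without lesioned acute or lesioned chronic library 1, *Lyn* without lesioned acute library 2 or lesioned chronic library 1, and *Cx3cr1* without lesioned acute library 1 or 3 or lesioned chronic library 1. *Itgam* was lost without any one lesioned acute library, *Gpr34* likewise and without lesioned chronic library 1, and *Cd68* without library 1 or 3 of either group, with adjusted p up to 0.149 for *Cd68*, the highest of the 7. Other cell types moved as well. All 8 oligodendrocyte markers fell, with a median of -0.84, their sum being 2142 to 3547 CPM after acute and 1176 to 2130.0 CPM after chronic L-DOPA. Of 9 astrocyte markers 4 fell, and the sum was 612 to 783 against 636 to 669 CPM, overlapping. Of 4 red blood cell genes 3 fell, *Hbb-b2* (-1.89 ± 0.34, adjusted p = 0.00337), *Hbb-b1* (-1.36 ± 0.25, adjusted p = 0.00371) and *Hba-a1* (-1.17 ± 0.29, adjusted p = 0.0142), with sums of 4.99 to 9.77 against 1.69 to 3.29 CPM. Perivascular macrophage markers summed to 4.14 to 4.58 against 3.16 to 3.31 CPM, with *F13a1* (-1.75 ± 0.38, adjusted p = 0.00845) and *Stab1* (-0.35 ± 0.10, adjusted p = 0.0318) lower of 5 tested. The part of these cells and of residual blood in the fall of the members was not tested.

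Of 33 further microglial genes tested, 12 were lower and 2 higher, with a median of -0.38. Those that changed most were *Clec7a* (-1.80 ± 0.41, adjusted p = 0.0111), the ATP channel *P2rx7* (-0.72 ± 0.16, adjusted p = 0.0106), *Csf2ra* (-0.70 ± 0.15, adjusted p = 0.00893) and *Unc93b1* (-0.68 ± 0.14, adjusted p = 0.00543). Of 17 genes of activated microglia, 8 were lower, led by *Clec7a*, the lysozyme *Lyz2* (-1.72 ± 0.17, adjusted p = 1.00e-04) and *Lgals3* (-1.33 ± 0.42, adjusted p = 0.0416), and 1 higher, *Lpl*, a lipase that neurons make as well (0.69 ± 0.12, adjusted p = 0.00280). Of 10 complement genes tested, 5 were lower, among them *C2* (-1.72 ± 0.23, adjusted p = 0.000501), *Cfb* (-1.27 ± 0.18, adjusted p = 0.000710), *Serping1* and *Clu*. Of the 12 genes below the ITAM adaptors, *Btk* (-0.80 ± 0.24, adjusted p = 0.0334) and the kinase *Syk*, named *Sykb* in the files (-0.65 ± 0.15, adjusted p = 0.0118), were lower and *Coro1a* higher (0.41 ± 0.09, adjusted p = 0.00919). Both ligands of CSF1R were lower, *Csf1* (-0.56 ± 0.15, adjusted p = 0.0187) and *Il34* (-0.42 ± 0.11, adjusted p = 0.0152), *Apoe* as well, and *Tgfb1* was higher (2.34 ± 0.10, adjusted p = 1.66e-07). Of 6 inflammatory genes tested, *Ptgs2* was higher (1.69 ± 0.22, adjusted p = 0.000435) and *Nfkbia* lower (-0.69 ± 0.16, adjusted p = 0.0105).

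In the unlesioned striatum, the same treatments were compared where dopamine innervation was left. Time since the surgery differed along with dosing here as well. Of 32 members tested, 8 were lower after chronic L-DOPA and none was higher (edgeR; none at an unadjusted p under 0.05 or by DESeq2 either), and 30 fold changes were below 0, with a median of -0.36. Over 20290 genes, 1.99% were lower, 1.07% higher and the median was 0.00. The 8 were the 3 C1q chains, *Csf3r*, *Tmem119*, *Olfml3*, *Fcer1g* and *Ctss*.

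In the unlesioned striatum after chronic L-DOPA, *C1qa* was at 7.07, 8.39 and 8.36 CPM, *C1qb* at 8.37, 10.1 and 10.4 CPM and *C1qc* at 6.94, 7.41 and 7.92 CPM, each chronic library under each acute one. The changes were -0.52 ± 0.08, adjusted p = 0.0144, -0.56 ± 0.09, adjusted p = 0.0146 and -0.36 ± 0.08, adjusted p = 0.0496. *Csf3r* changed by -0.89 ± 0.15, adjusted p = 0.0177 from the levels given above. *Olfml3* was at 1.28, 2.65 and 2.41 CPM against 4.25, 4.07 and 4.01 CPM after acute L-DOPA (-0.95 ± 0.19, adjusted p = 0.0324) and *Tmem119* at 3.31, 4.56 and 4.41 CPM (-0.63 ± 0.11, adjusted p = 0.0218), both lowest in chronic library 1. *Fcer1g* was at 1.24, 1.40 and 1.38 CPM (-0.51 ± 0.10, adjusted p = 0.0328), and *Ctss* changed by -0.49 ± 0.08, adjusted p = 0.0169. The other 24 members tested lay between -1.40 and 0.06.

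Of the 23 members that fell on the lesioned side, 15 were not called here. *Trem2* was at 1.93, 2.70 and 2.83 CPM after chronic L-DOPA (-0.53 ± 0.13, adjusted p = 0.0554), *Tyrobp* at 2.15, 2.37 and 2.26 CPM (-0.31 ± 0.10, adjusted p = 0.113) and *Selplg* at 4.77, 6.82 and 6.81 CPM (-0.46 ± 0.12, adjusted p = 0.0688). None of these chronic libraries reached the lowest acute one. *Siglech* was at 4.36, 4.26 and 4.47 CPM after acute and at 3.10, 3.94 and 4.17 CPM after chronic L-DOPA (-0.22 ± 0.11, adjusted p = 0.258), without overlap, and *Gpr34* at 3.24, 2.55 and 2.86 against 2.15, 2.56 and 2.27 CPM (-0.31 ± 0.11, adjusted p = 0.148), with overlap. *Csf1r* was at 22.1, 21.8 and 21.1 against 16.3, 19.8 and 20.4 CPM (-0.20 ± 0.09, adjusted p = 0.203). *Cx3cr1* was at 11.5, 10.0 and 11.9 against 8.12, 9.92 and 10.8 CPM (-0.21 ± 0.10, adjusted p = 0.271). Of these receptors, *Csf1r* had groups that were apart and *Cx3cr1* did not. *Itgam* was at 4.81, 4.82 and 5.02 against 1.80, 3.83 and 4.15 CPM, again lowest in chronic library 1, and was not called (-0.57 ± 0.22, adjusted p = 0.168). *Cd53* was at 1.73, 1.72 and 1.73 against 1.16, 1.38 and 1.499 CPM (-0.35 ± 0.11, adjusted p = 0.115) and *Lyn* at 1.34, 1.31 and 1.29 against 1.14, 1.09 and 1.14 CPM (-0.22 ± 0.11, adjusted p = 0.254), both without overlap. Of the lysosomal genes, *Laptm5* was at 5.80, 7.42 and 7.12 CPM after chronic L-DOPA (-0.31 ± 0.09, adjusted p = 0.0955) and *Ctsd* at 50.04, 69.5 and 53.9 CPM, with chronic library 2 above all acute ones (-0.15 ± 0.11, adjusted p = 0.460). *Irf8* was at 1.21, 1.19 and 1.46 CPM after acute L-DOPA, against the chronic levels above (-0.19 ± 0.17, adjusted p = 0.559).

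The member with the lowest fold change, *Cd14*, was not called (-1.40 ± 0.55, adjusted p = 0.176): it was at 0.575, 3.33 and 0.795 CPM after acute and at 0.562, 0.668 and 0.544 CPM after chronic L-DOPA, and without unlesioned acute library 2 the change was -0.20. The highest was *Inpp5d* (0.06 ± 0.12, adjusted p = 0.814), with overlapping groups, and *Fcgr3* and *Cd68* were near 0 (-0.04 ± 0.10 and 0.04 ± 0.11, adjusted p = 0.849 and 0.885). The groups were apart, with chronic lower, for 21 of 32 members and for 14.3% of all genes. The counts of calls, of members and of all genes alike, depended on single libraries: no member was called without unlesioned acute library 1, 2 or 3, 2 were without unlesioned chronic library 3, 6 without library 1 and 14 without library 2, the one with choroid plexus markers. Of all genes, 1.99% were called lower with every library, 0.0484%, 0.0485% and 0.511% without unlesioned acute library 1, 2 and 3, and 0.277%, 0.509% and 6.63% without unlesioned chronic library 3, 1 and 2. The 2 without library 3 were *C1qa* and *C1qb*, and *C1qc* and *Fcer1g* were the calls lost without library 1. The highest adjusted p in these fits was 0.1496, for *Olfml3*. The 4 red blood cell genes had a median of -0.89 and the 8 oligodendrocyte markers one of -0.20, without passing the test, with red blood cell sums of 4.00 to 7.92 against 1.67 to 4.04 CPM. Perivascular macrophage markers summed to 4.57 to 4.88 against 3.75 to 4.17 CPM, with a median of -0.55 and none of 6 tested called. The part of these cells and of residual blood in the values of the members was not tested. Of 32 further microglial genes tested, 3 were lower, among them *Slc2a5* (-0.88 ± 0.19, adjusted p = 0.0378) and *Csf2ra* (-0.77 ± 0.12, adjusted p = 0.0144), and of 15 genes of activated microglia *B2m* (-0.63 ± 0.09, adjusted p = 0.0125). The astrocyte markers *Aqp4* and *Gja1* were lower, 2 of 9, and of the ligands *Tgfb2* was higher (0.63 ± 0.13, adjusted p = 0.0310). This comparison and that of the lesioned side use different libraries, but their difference is the interaction above, in which *Fcgr3* was the one member called.

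**Figure D3:**
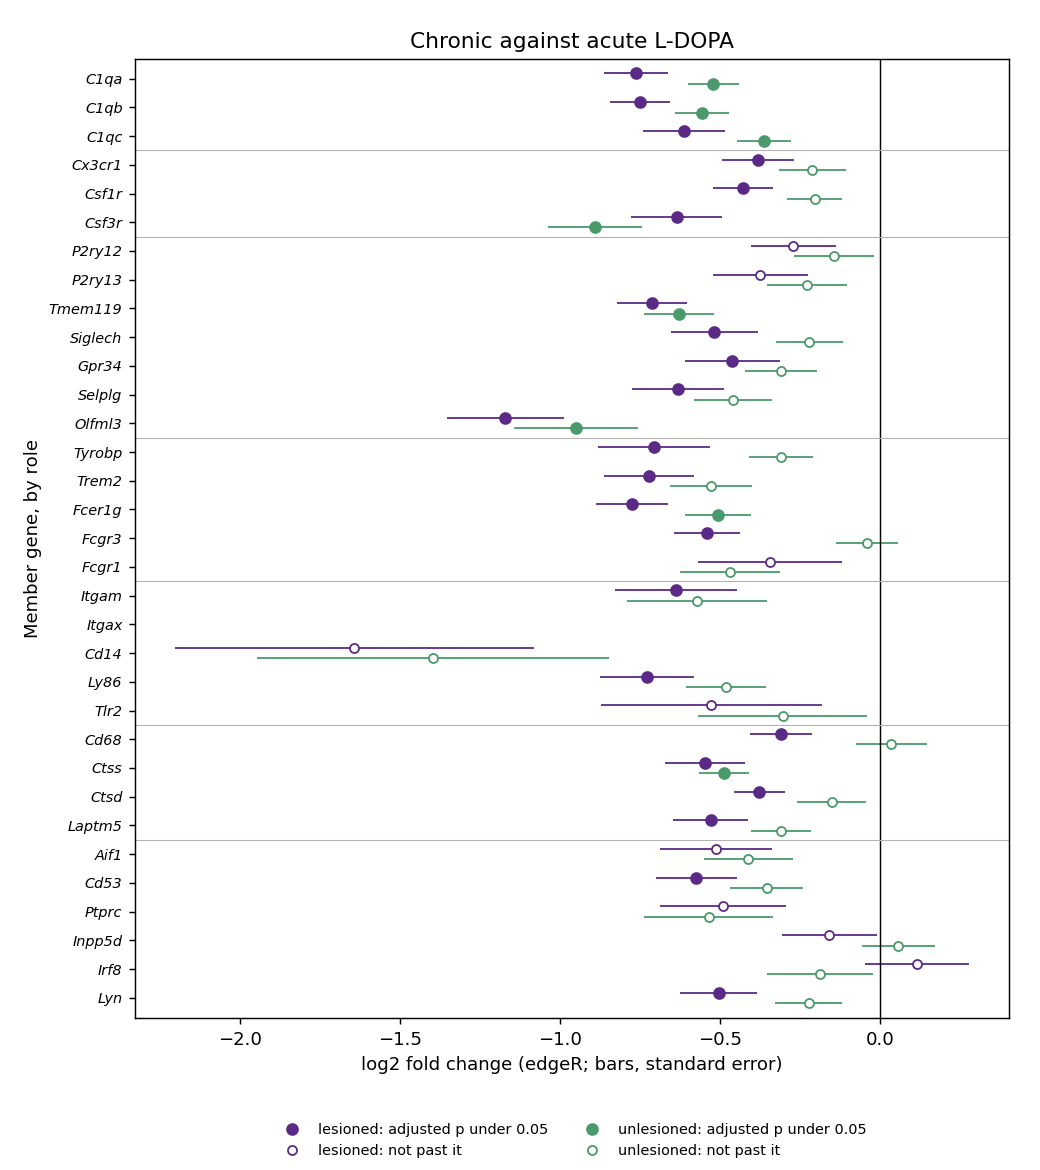
Points give the log2 fold change of chronic against acute L-DOPA for each member with its standard error as a bar, in purple for the lesioned and in green for the unlesioned striatum. Filled points passed an adjusted p of 0.05. Of the purple points 23 are filled, all below 0, and of the green ones 8, and the bars of *Cd14* are the longest.

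*Cd14*, the coreceptor for lipopolysaccharide, was the one member that was more than 3 times as high in a pair of same-numbered libraries as in each of the other 10. Both acute libraries numbered 2 held 3.33 CPM (unlesioned) and 4.12 CPM (lesioned), while the other 10 libraries lay between 0.54 and 0.84 CPM. The median member was not raised in this pair. It lay at 0.07 in the unlesioned library 2, just under 0.08 and 0.11 in the other two, and at 0.32 in the lesioned library 2, the lowest of its group.

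**Figure D4:**
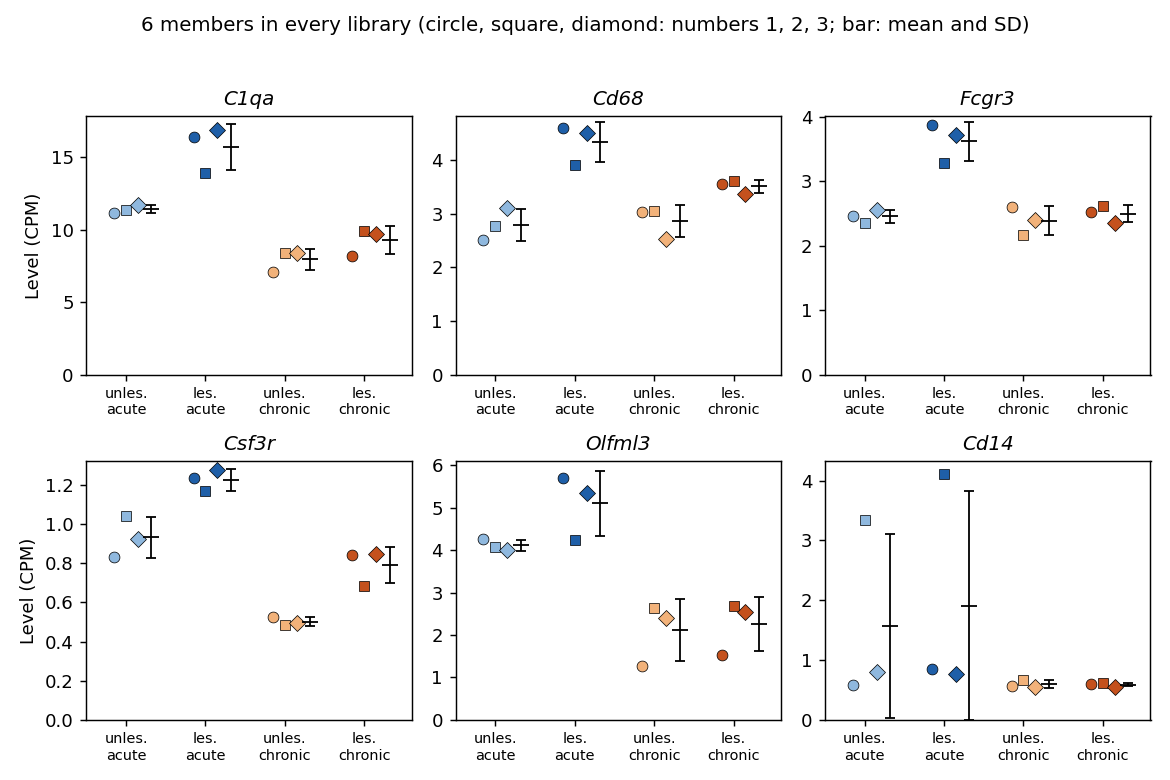
Levels in CPM of 6 members in every library, with circles, squares and diamonds for the numbers 1, 2 and 3 and the mean with its SD beside each group. *C1qa*, *Cd68* and *Fcgr3* are highest in the lesioned acute group, *Csf3r* and *Olfml3* are lower in both chronic groups, and *Cd14* is high in the 2 acute libraries numbered 2, at 3.33 and 4.12 CPM.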

How the data were processed

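RNA from 12 striatal punches (4 groups of 3) was made into TruSeq libraries, and the authors mapped the reads to mm9 with the Genomatix Mining Station and deposited raw read counts per transcript. Mapper settings and the handling of strand and of reads with several sites are not given in the sources used here. Of 189660 transcripts, 296 without a gene name (0.0485% of counts) were left out. Also not used were 12 normalised columns, 8 columns of group means and SDs, and 36 per-sample columns in 3 tables that otherwise hold the authors' DESeq p-values and fold changes.

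Groups came from the labels. Transcripts passing filterByExpr were fitted with edgeR 4.0.16 (R 4.3.3, limma 3.58.1), TMM normalisation and the quasi-likelihood test, on the 6 libraries of each comparison or on all 12 for the interaction, with Benjamini-Hochberg adjustment over all transcripts. A gene is its transcript with the highest mean CPM, and a fold change is called at an adjusted p under 0.05. CPM values are counts per 1000000 of the TMM-scaled total (factors 0.966 to 1.03). The files follow mm9, and promoter sequences were matched to it exactly. Exonic overlaps come from the GENCODE vM1 annotation.

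Same-numbered libraries of both sides deviated together: the correlation over 12794 genes was 0.474, 0.475 and 0.385 after acute and 0.514, 0.574 and 0.160 after chronic L-DOPA, each above the limit of 0.1. Of the pairs with different numbers, lesioned chronic 1 with unlesioned chronic 3 had 0.153, also above the limit, and the others at most 0.088. The numbers were taken to pair the sides within a treatment. The labels do not say so, and the limit does not settle it for the third chronic pair. The main fits did not use this pairing. The labels give 3 mice per group, so libraries of a group are taken as separate mice. Replicates were no copies of each other (chi-square per degree of freedom 5.41 to 19.7).

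Values in every library are given for members called in any comparison and for the highest and lowest fold change of each, and from a pathway list at most the 4 called genes of largest change. Genes beyond these, such as *Clu*, *Il34* and *Cd47*, were named after their values were seen, and 2 genes of these lists are counted but not reported by name here. The members, lists and tests were chosen with earlier results of these data known. Alternatives were DESeq2 1.42.0, its size factors in edgeR, no filter, one transcript per gene, sums over transcripts, one fit over all libraries, an adjusted p under 0.01, the replicate number as a block and leaving out each library. A correction for GC content and length and leaving out both acute libraries numbered 2 were added after the data were seen. Tested on simulated data for the acute lesion effect, the fit recovered 100 of 100 transcripts changed by a log2 of 1 and 100 of 100 changed by 2, with 8 false calls among 208 without and 13 among 213 with the replicate block. For the change of the lesion effect it recovered 91 of 100 changed by a log2 of 1 and 100 of 100 changed by 2, with 7 false calls among 198. The changed transcripts had a mean above 1 CPM and the simulated libraries were not paired. Recovery of smaller changes, such as the members' median of 0.29 for the acute lesion effect, of lower levels and of paired libraries was not tested.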

Additional observations from a re-analysis of the deposited data

Results flagged for a closer look

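The lesion effect on *Fcgr3* differed between the treatments by -0.50 on the log2 scale, which a test of the difference itself (the interaction, edgeR, adjusted p = 0.0469) picked out as the one among 33 members, beside 1.56% of all genes called in this direction. The call was lost in 9 of the 12 fits that left out one library, without a filter on low counts and at an adjusted p under 0.01. The fold change between the sides was 0.57 ± 0.09 after acute and 0.06 ± 0.11 after chronic L-DOPA.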

How the results depend on the processing

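Normalisation, filter and the choice of transcript moved the medians of the members by little, whereas the counts of called members moved with the threshold, the libraries in the fit and the block and, in the unlesioned striatum, with sums over transcripts, and the calls over all genes moved too. At an adjusted p under 0.01, 6 members were called for the acute lesion effect, 0 for the chronic one, 14 for chronic against acute L-DOPA in the lesioned and 0 in the unlesioned striatum, and 0 for the change of the lesion effect. Of all genes, 3.87% and 4.75% were then called higher for the lesion effects, 5.13% and 0.0789% lower between treatments and 0.464% lower for the change of the lesion effect. In one fit over 12 libraries, 6 were called for the acute and 2 for the chronic lesion effect (5.43% and 10.6% of all genes higher), and DESeq2 called 2 for the latter, *Irf8* and *Ctss* (8.49%). Sums over transcripts gave 3 calls in the unlesioned striatum, with 0.312% of all genes lower. Without a filter, and also without both acute libraries numbered 2, the change of the lesion effect had 0 calls, and without this pair the acute lesion effect had 8. Leaving out one library gave 9 to 13 calls for the acute lesion effect, 0 to 1 for the chronic one (*Csf3r*, *Irf8* or *Ctss*, median of the members -0.0069 to 0.23), 18 to 25 in the lesioned and 0 to 14 in the unlesioned striatum, and 0 to 1 for the change of the lesion effect. Of all genes, 5.11% to 7.57% and 5.68% to 8.52% were higher in these fits for the lesion effects, and 6.45% to 16.5%, 0.0484% to 6.63% and 0.889% to 2.99% lower for the other comparisons. Such fits have fewer libraries, and other causes were not tested.

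With the replicate number as a block, 19 members were called for the acute and 6 for the chronic lesion effect, beside 13.2% and 12.8% of all genes called higher, and 1 for the change of the lesion effect, beside 6.13% lower. Between treatments, where libraries share only a number, the block gave 21 calls in the lesioned striatum, with *Cx3cr1*, *Gpr34* and *Cd68* lost and *Cd14* gained, and 8 in the unlesioned one, with *Fcer1g* lost and *Selplg* gained, beside 12.2% and 1.77% of all genes lower. Of 874 alternative values for 56 results on single members, 701 stayed on the same side of the threshold, 161 lost and 7 gained a call, and 5 changed sign, all with one library left out and none called. These were *Inpp5d* for the acute lesion effect (-0.0187 without unlesioned acute library 1 and -0.0682 without lesioned acute library 3, in fits from -0.0682 to 0.1608) and in the unlesioned striatum (-0.0046 without unlesioned acute library 1 and -0.0588 without unlesioned chronic library 3, in fits from -0.0588 to 0.1447), and *Irf8* in the lesioned striatum (-0.0232 without lesioned acute library 2, in fits from -0.0232 to 0.3003). A level of 3 counts is the least that these depths show, and *Itgax* was near it.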

Other observations

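Besides *Cd14*, 10 genes were more than 3 times as high in both acute libraries numbered 2 as in each of the other 10 libraries, at levels over 0.5 CPM. *Lcn2*, a siderophore-binding protein, was at 6.65 CPM in the unlesioned and 8.28 CPM in the lesioned library against at most 0.0839 CPM elsewhere. *Socs3*, an inhibitor of cytokine signalling, was at 2.39 and 2.86 CPM against at most 0.337 CPM, and *Icam1*, an adhesion molecule, at 2.77 and 2.73 CPM against at most 0.481 CPM. The selectins *Sele* and *Selp* were at 0.922 and 0.634 CPM in the unlesioned and at 0.983 and 0.636 CPM in the lesioned library, and at most 0.0057 and 0.0092 CPM elsewhere. The others were *Tnfsf8*, *Serpina3f*, *Cxcl1*, *Ch25h* and *E030010A14Rik*. By the same limits, no gene stood out for any other number of either treatment, and this search was made after the level of *Cd14* had been seen.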
